A study of Mus musculus with 18 samples.

Results

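Arachidonic acid is a fatty acid held in membrane phospholipids. Cytosolic phospholipase A2 (Pla2g4a) releases it. Lipoxygenases then turn it into hydroxy fatty acids and leukotrienes, and cyclooxygenases turn it into prostaglandins and prostacyclin. In vessel walls these lipids are known for acting on platelets, vessel tone and leukocyte entry. Here 10 genes of release and conversion were followed by name: Pla2g4a, the lipoxygenases Alox12, Alox15 and Alox5, the 5-lipoxygenase-activating protein Alox5ap, leukotriene A4 hydrolase (Lta4h), the cyclooxygenases Ptgs1 and Ptgs2, prostacyclin synthase (Ptgis) and 15-hydroxyprostaglandin dehydrogenase (Hpgd), which inactivates prostaglandins. They are 10 of 55401 genes listed in the endothelial table and 10 of 22612 lines in the EO771 table, matched by Ensembl identifier in the first and by symbol in the second.

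The data are 18 mouse RNA-seq libraries, 3 for each of 6 groups. BEC normal are blood vessel endothelial cells of the fat pad and BEC tumour those of primary EO771 tumours. HEC normal are high endothelial cells, which line the venules where lymphocytes enter lymph nodes, and HEC tumour are the same cells from nodes whose tissue the labels give as lymph node metastases. Per the methods all 4 groups came from wild-type C57BL/6 female mice and were sorted as CD45- CD31 high cells, with PNAd, the carbohydrate that marks high endothelium, present on HECs and absent from BECs. EO771 cells, from a mouse mammary cancer, were cultured with vehicle or with 12-HETE, the product of ALOX12. HECs and BECs came from different tissues, digested with different enzymes, so cell type and tissue cannot be told apart. BEC normal and BEC tumour also came from different tissues, digested with different enzymes and for different times. In BECs, a change with tumour therefore cannot be told apart from tissue or digestion. The study describes the replicates as independent experiments. Neither the labels nor its methods tie each library to separate animals, so p-values measure only the spread between these libraries.

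Total deposited values ran from 56.4 to 79.4 M per endothelial library and from 17.3 to 18.6 M per EO771 library. Low endothelial values pile up in steps of about 3.71, so 1 unit there is not 1 read. Replicates differed by more than counting error in every group, though not equally. Chi-square per degree of freedom, near 1 for counting error alone, was 13.5 to 27.3 between endothelial replicates. In EO771 it was 16.5 to 46.3 with vehicle and 2.39 to 2.72 with 12-HETE. The pan-endothelial markers were expressed in all 4 endothelial groups, at 2471 to 3315 CPM (counts scaled to library size, summed over the list). High endothelial markers summed to 975 to 1331 CPM in HEC normal, 2225 to 3057 CPM in HEC tumour and at most 11.8 CPM in the BEC libraries. Within that list Ccl21a was at 0 in all HEC libraries and Madcam1 at 0 in 5 of 6. Chst4, a sulfotransferase of high endothelium, was at 4.1 normalised counts in HEC normal replicate 2 against 19906 and 20205 in the other 2 HEC normal libraries. Fut7, a fucosyltransferase, was at 14255 in HEC tumour replicate 3 against 65523 and 66477. Why these single values stand apart from their replicates was not tested, and both enter the sums of high endothelial markers as deposited. The 3 BEC tumour libraries carried myeloid markers at 1642 to 2261 CPM, against 108 to 129 CPM in BEC normal, 486 to 511 CPM in HEC normal and 360.4 to 377 CPM in HEC tumour, where Cd68 alone supplied most of the sum. Those 2 groups differed also in fibroblast and pericyte markers, at 103 to 143 CPM in BEC tumour and 995 to 1030 CPM in BEC normal.

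**Figure D1:**
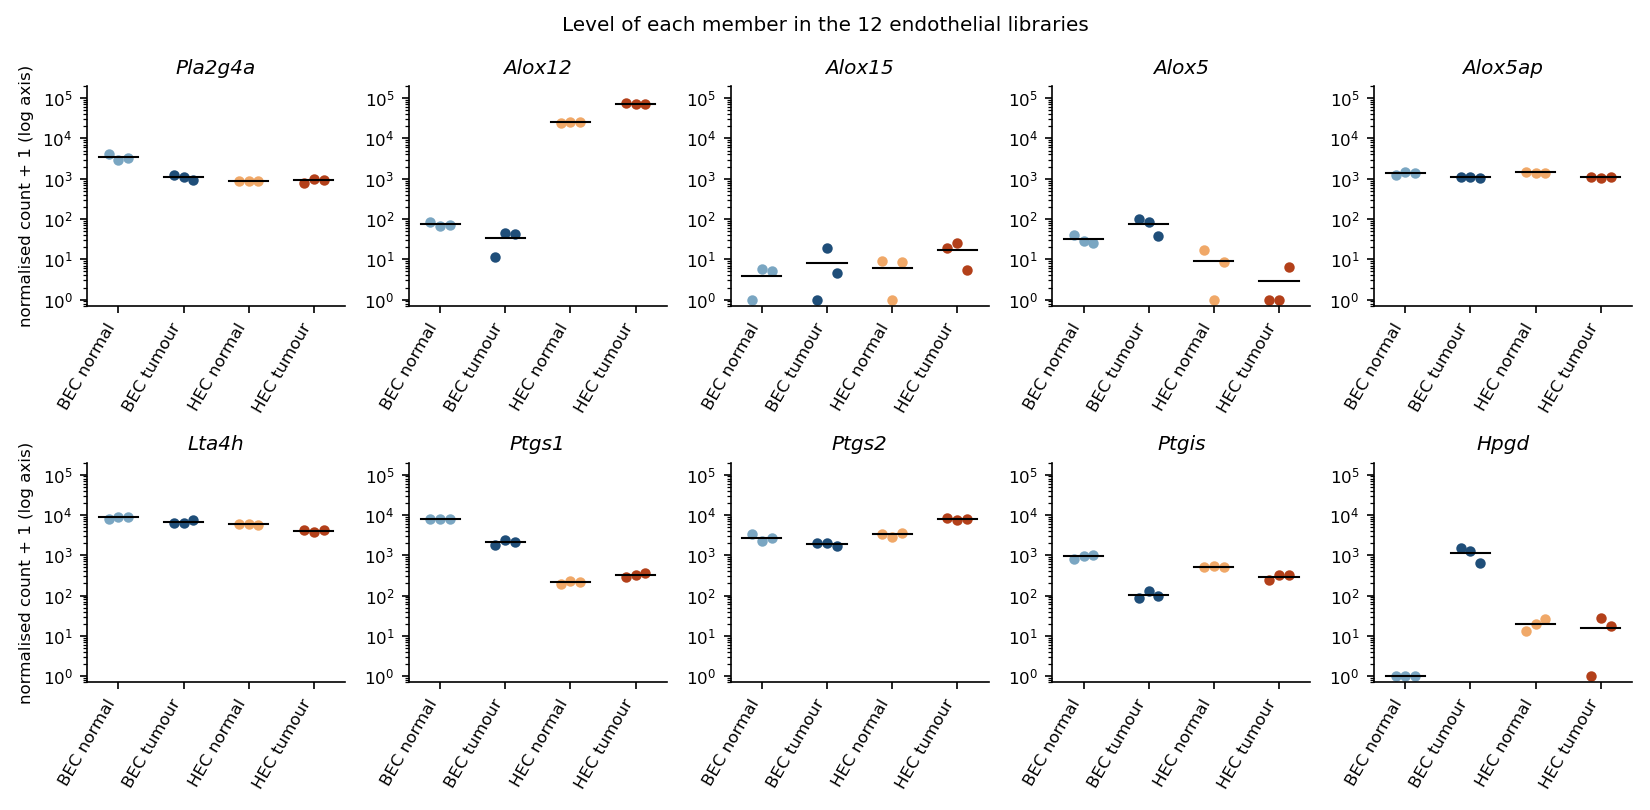
Normalised counts plus 1, on a log axis, of the 10 genes in the 12 endothelial libraries; points are libraries and bars the group means (n = 3). The 6 HEC libraries hold Alox12 at 24203 or more and the 6 BEC libraries at 83.8 or less.

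Alox12 and Ptgs2, the members called higher in HEC tumour against HEC normal, have the following 250 bases upstream of their RefSeq starts (GRCm38.p6, read along the gene), shown because the rest of the text turns on these genes. The capitals mark GC boxes (GGGCGG), which 32.7% of the 32851 promoters of the same length and table hold on either strand. Alox12 lies on chromosome 11 and its upstream window spans 70255371 to 70255620 on the minus strand. That of Ptgs2 spans 150099781 to 150100030 on chromosome 1, plus strand.
Alox12: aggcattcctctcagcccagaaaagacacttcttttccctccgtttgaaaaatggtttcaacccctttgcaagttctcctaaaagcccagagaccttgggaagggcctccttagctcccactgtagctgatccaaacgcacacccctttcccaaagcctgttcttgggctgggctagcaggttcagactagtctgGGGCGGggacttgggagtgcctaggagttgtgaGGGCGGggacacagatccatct
Ptgs2: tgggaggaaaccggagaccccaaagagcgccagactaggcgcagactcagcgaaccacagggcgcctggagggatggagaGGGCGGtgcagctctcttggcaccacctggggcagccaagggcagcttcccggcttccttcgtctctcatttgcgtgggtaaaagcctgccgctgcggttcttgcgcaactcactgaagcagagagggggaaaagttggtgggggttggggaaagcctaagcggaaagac
The Alox12 window held 2 GC boxes, at -55 and -22 from the start, and the Ptgs2 window 1, at -170. Neither window held TATAA, the E-box CACGTG, the cAMP response element TGACGTCA or the AP-1 letters TGACTCA. Bases outside these windows, including those past the RefSeq start, were not searched. The absence therefore does not show that the promoters lack these elements. The ETS core GGAA occurred 4 times in the Alox12 window and 6 times in the Ptgs2 window, and 93.4% of promoters hold it. These are matches of letters only.

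The primer pair that the study designed for Alox12 is shown because it marks which transcripts its own assay of this gene would read.
forward primer: tccctcaacctagtgcgtttg
reverse primer: cctcgggaacgtcgaagtc
The forward primer lies in exon 1 (chr11:70255201-70255221) and the reverse primer in exon 2 (chr11:70254580-70254598), both on GRCm38. The product is 115 bases and occurs in transcripts Alox12-201 and Alox12-202.

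Alox12, arachidonate 12-lipoxygenase, was the member with the highest level per exon length in both HEC groups. The gene lies at chr11:70241457-70255353 on the minus strand, in 14 exon blocks that overlap no other gene's exons. HEC normal libraries held 24203, 25145 and 25353 normalised counts and HEC tumour libraries 73831, 71029.5 and 72131. BEC normal libraries held 83.8, 65.9 and 72.1, and BEC tumour libraries 10.2, 44.0 and 42.7. All 6 HEC libraries were above all 6 BEC libraries, and all 3 HEC tumour libraries were above all 3 HEC normal libraries. HEC normal exceeded BEC normal by 8.39 ± 0.18 on the log2 scale (SE), a 335-fold difference with an adjusted p too small for the software to represent. In tumour-bearing mice the difference between HECs and BECs was 11.11 ± 0.21, with an adjusted p again too small to represent. HEC tumour exceeded HEC normal 2.90-fold in Alox12 (log2 1.54 ± 0.16, adjusted p = 2.72e-21). In BECs with tumour it fell by 1.19 ± 0.23 on the log2 scale, with an adjusted p of 9.31e-07. BEC tumour replicate 1, at 10.2, was the lowest library, and without it the BEC change was -0.78 (adjusted p = 6.88e-05) and was no longer called.

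Per kb of exon, Alox12 reached 17706 ± 346 normalised counts in HEC tumour (SD, n = 3), which ranked 196 of 18486 genes, and 6096 ± 150 in HEC normal, which ranked 689. In BEC normal it was at 18.1 ± 2.2 and ranked 14627. The coefficient of variation between replicates was 2.46% in HEC normal and 1.95% in HEC tumour. The median over genes with at least 1000 normalised counts was 5.27% and 4.74% in those groups. Alox12 is known as the 12-lipoxygenase of platelets, so platelet and megakaryocyte markers were summed. The list of 10 gave 16.7 to 19.4 CPM in HEC normal and 13.2 to 14.6 CPM in HEC tumour, against 22.8 to 29.0 CPM in BEC normal and 28.2 to 33.1 CPM in BEC tumour. Of the list, Gp6 was at 0 in all 12 libraries and Treml1 at 0 in all HEC libraries, while Pf4 was at 53.1 to 126 normalised counts in HECs and 1069.7 to 1505 in BECs. Mean levels of Itga2b, the platelet integrin subunit, went the other way, at 1024 in HEC normal and 683 in HEC tumour against 395 in BEC normal. Keratinocyte markers summed to 30.0 to 32.2 CPM in HEC tumour and 9.0 to 14.0 CPM in HEC normal, with Krt5 and Krt1 at 0 in both HEC groups. Most of that sum was Ivl, the gene of involucrin, whose normalised count was 585 ± 132 in HEC normal and 1712 ± 72 with tumour. Krt10, a keratin gene, was at 205 ± 40 and 311 ± 21. The high endothelial marker Glycam1 was also above its HEC normal level in HEC tumour, at 70725 ± 954 against 39851 ± 638. The part of these markers in the Alox12 differences was not tested.

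The genes within 150 kb of Alox12 were read from the same libraries. Bcl6b, a transcriptional repressor gene 11.7 kb away, averaged 19559 in BEC normal and 14552 in HEC normal (log2 -0.43, adjusted p = 7.61e-25, short of the fold threshold). Rnasek, 1.6 kb away, was 0.64 higher on the log2 scale in HEC normal (adjusted p = 0.365). Pelp1, 137.5 kb away, differed by -0.07 (adjusted p = 0.359). Alox12e, a lipoxygenase 60.3 kb away, held 0 on average in HEC normal and 1.48 in HEC tumour and was not tested. Clec10a, a lectin gene 70.6 kb away, was called lower (adjusted p = 0.00239), at 0 in HEC normal and 11.2 on average in BEC normal, which is under the limit of 3 reads per library. Slc16a11, a transporter gene 25.0 kb away, averaged 23.3 in HEC normal and 62.6 in BEC normal and was called lower (log2 -1.43, adjusted p = 0.00515). Of the neighbours tested, none was called higher in HEC normal against BEC normal, and none was called between HEC tumour and HEC normal.

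By mean absolute difference of centred log2(normalised count + 1) over the 12 endothelial libraries, the profile most like that of Alox12 among 18510 genes was Alb, at 0.711 (the median gene was at 4.93). Next came Fgb (1.13), Serpina3k (1.19), Serpina1c (1.25) and Fgg (1.31). Alb encodes serum albumin, Fgb and Fgg fibrinogen chains, and the Serpina genes secreted protease inhibitors, all known as products of liver. Alb was at 909, 1257 and 1576 normalised counts in HEC normal and at 2435, 1934 and 2505 in HEC tumour. BEC tumour held 0 in all 3 libraries and BEC normal 7.1, 0 and 0. These libraries are labelled as sorted endothelium and not as liver, and how such transcripts came to be in the HEC libraries was not tested. The high endothelial marker Fut7 ranked 13 by the same measure, Glycam1 175 and Chst4 225, and Ptgs2, the nearest other member, 2549. The measure is over 12 libraries of 4 groups, so it mostly reads the differences between groups.

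Ptgs2, the inducible cyclooxygenase (chr1:150100031-150108227, plus strand), was also higher in HEC tumour. Its libraries held 8207, 7622 and 8098 normalised counts in HEC tumour and 3422, 2880.4 and 3559 in HEC normal. BEC normal held 3357, 2199 and 2660.5, and BEC tumour 2005, 2012 and 1731. The HEC tumour libraries stood above all other endothelial libraries. HEC normal and BEC normal overlapped. HEC tumour exceeded HEC normal 2.43-fold (log2 1.28 ± 0.15, adjusted p = 1.11e-16) and BEC tumour 4.16-fold (log2 2.06 ± 0.15, adjusted p = 9.50e-43). HEC normal was above BEC normal by 0.26 ± 0.15 (adjusted p = 0.109). In BECs it was -0.52 ± 0.15 with tumour (adjusted p = 0.00127), short of the fold threshold. Alox12 and Ptgs2 were the only 2 of 9 members tested that were called between HEC tumour and HEC normal, both higher. Of all 18511 genes, 4.58% were called higher and 3.21% lower. The study had picked out Alox12 from these endothelial transcriptomes, as first in rank among genes higher in HECs than BECs and raised with tumour. Its p-values for those differences, and its place in the counts of members called, are therefore not independent of that choice.

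Ptgs1, the constitutive cyclooxygenase (chr2:36230426-36252272, plus strand), ran the other way between cell types. BEC normal held 8042, 7970.1 and 7812 normalised counts, BEC tumour 1842, 2361 and 2105, HEC tumour 282, 319.7 and 366, and HEC normal 197, 234 and 212. No 2 of these groups overlapped. HEC normal was 37.1-fold lower than BEC normal (log2 -5.21 ± 0.13, adjusted p too small to represent) and HEC tumour 6.52-fold lower than BEC tumour (log2 -2.70 ± 0.13, adjusted p = 7.75e-102). With tumour Ptgs1 fell in BECs by 1.92 ± 0.12 (log2; adjusted p = 4.29e-60). In HECs it was 1.51-fold higher (adjusted p = 9.39e-05), short of the fold threshold. Its exons overlap 148 bases of Gm43621 on the opposite strand, and whether the counting used strand is not stated in the sources used here.

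Ptgis, which makes prostacyclin (chr2:167191805-167240604, minus strand), was highest in BEC normal and lowest in BEC tumour. BEC normal held 799.9, 969.6 and 1025 normalised counts and BEC tumour 84.4, 128 and 98.5. It fell 8.98-fold in BECs with tumour (log2 -3.17 ± 0.20, adjusted p = 4.91e-57). HEC normal held 505, 535 and 499.8 and HEC tumour 240.1, 317 and 329.9. HEC tumour exceeded BEC tumour 2.85-fold (log2 1.51 ± 0.20, adjusted p = 3.84e-13). Its exons overlap 156 bases of 1110018N20Rik on the opposite strand.

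Pla2g4a (chr1:149829618-149961290, minus strand) was highest in BEC normal, at 4197, 2917 and 3292 normalised counts. BEC tumour held 1236, 1101 and 906, HEC normal 895, 862 and 861, and HEC tumour 791, 999.6 and 945. The BEC normal libraries stood above all others, and the other 3 groups lay close together. It fell by 1.68 ± 0.16 on the log2 scale in BECs with tumour (adjusted p = 7.26e-24), and in HEC normal the log2 difference from BEC normal was -1.99 ± 0.16 (adjusted p = 5.51e-33). Between HEC tumour and HEC normal the difference was 0.06 ± 0.17 (adjusted p = 0.82). In BEC normal, where Ptgs1, Ptgis and Pla2g4a were highest, the smooth muscle actin gene Acta2 was at 42470 to 43370 normalised counts, against 2334 to 4039 in BEC tumour and 235 or less in HECs. The part of other wall cells in the BEC differences was not tested, and in bulk libraries fewer cells of a type and less RNA per cell cannot be told apart.

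**Figure D2:**
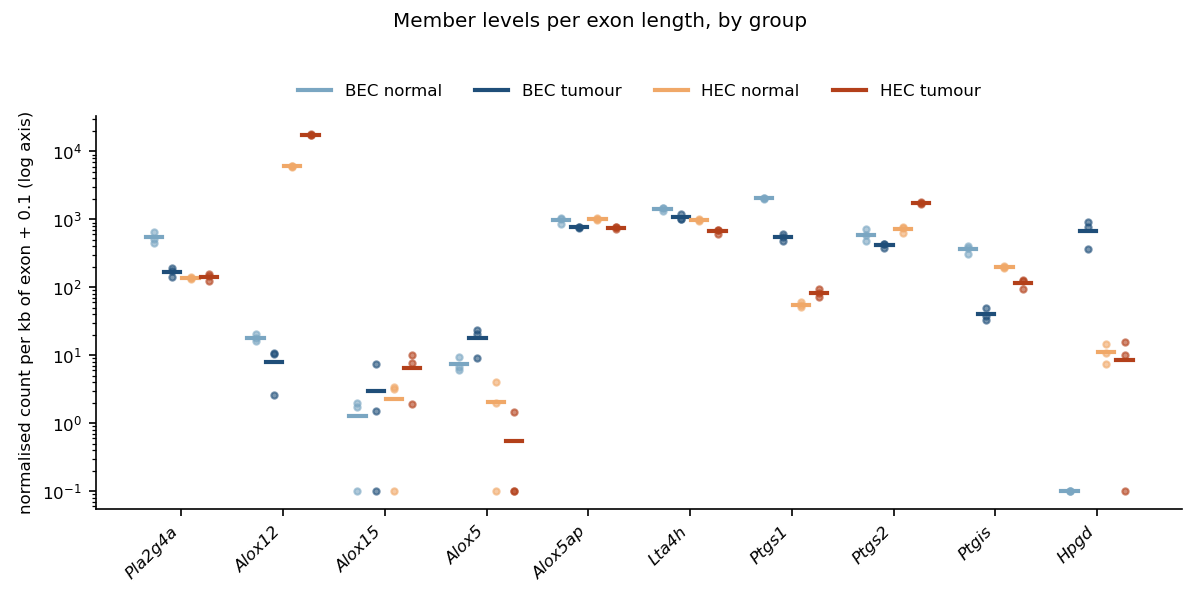
Normalised counts per kb of exon plus 0.1, on a log axis, for the 10 genes in each endothelial group; points are libraries and bars group means (n = 3). Alox12 leads in the HEC groups, Ptgs1 in BEC normal and Lta4h in BEC tumour.

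Levels of different members were compared per kb of exon. In BEC normal the order ran from Ptgs1 (2045 ± 30) through Lta4h (1421 ± 95) and Alox5ap (968 ± 87) to Ptgs2 (598 ± 127) and Pla2g4a (543 ± 103), the last 2 of which differed by less than their SD. Lta4h led in BEC tumour (1085 ± 107), and Alox5ap, Hpgd and Ptgs1 followed without a gap larger than the SD between neighbours. In HEC normal Alox12 (6096 ± 150) was followed by Alox5ap (1007 ± 32), Lta4h (972 ± 29) and Ptgs2 (718 ± 78). In HEC tumour Ptgs2 took second place at 1741 ± 68, ahead of Alox5ap at 756 ± 26. All of these are means ± SD over 3 libraries.

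Alox5ap and Lta4h, of the 5-lipoxygenase route, passed the fold threshold in none of the 4 comparisons of endothelial groups. Alox5ap (chr5:149264767-149288153, plus strand), which presents arachidonic acid to 5-lipoxygenase, ranged from 1032 to 1477 normalised counts over the 12 libraries. Its tumour groups were below the normal ones, 1.33-fold in HECs (adjusted p = 1.98e-05) and 1.26-fold in BECs (adjusted p = 0.000322). Lta4h (chr10:93453411-93484875, plus strand), which makes leukotriene B4, ranged from 3761 to 9026. The means ran from 8673 ± 578 (BEC normal) and 6619 ± 655 (BEC tumour) to 5928 ± 178 (HEC normal), with 4106 ± 299 the lowest (HEC tumour), and the libraries of neighbouring groups in that order did not overlap. All 4 pairs of groups tested had adjusted p-values of 6.40e-05 or less for Lta4h with folds from 1.31 to 1.61. Exons of Alox5ap overlap 189 bases of Gm19719 on the opposite strand.

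Alox5, 5-lipoxygenase (chr6:116410077-116461178, minus strand), was low throughout. BEC tumour held 97.4, 82.9 and 36.6 normalised counts, BEC normal 38.8, 27.1 and 24.4, HEC normal 16.2, 0 and 7.6, and HEC tumour 0, 0 and 5.5. HEC tumour was below BEC tumour (adjusted p = 8.53e-05). Counted in steps, HEC tumour held about 1 read and BEC tumour 66, a ratio of 53.9 with a 95% exact interval of 9.34 to 2160 that covers counting error only. BEC tumour and BEC normal overlapped (log2 1.26 ± 1.10, adjusted p = 0.342). HEC tumour against HEC normal was not called (log2 -2.12 ± 1.29, adjusted p = 0.205), though it was without HEC normal replicate 2 (-2.72, adjusted p = 0.0377) or HEC tumour replicate 3 (-5.34, adjusted p = 0.0126). HEC normal against BEC normal was called without HEC normal replicate 1 (-2.96, adjusted p = 0.0325). Alox15, a further lipoxygenase (chr11:70344152-70352031, minus strand), had at most 24.7 normalised counts in any endothelial library. Its mean was under 10 deposited units, so it was not tested. The study cites a report that this enzyme, in some human breast cancer cells, acts through the lipid given to the cultured cells here.

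Hpgd (chr8:56294585-56321043, plus strand) was high in BEC tumour and low or at 0 in the other endothelial groups. BEC tumour held 1528, 1279 and 624 normalised counts and BEC normal 0 in all 3 libraries. HEC normal held 12.2, 18.3 and 24.8 and HEC tumour 0, 26.6 and 16.6. Against a limit of 3 reads per library, about 11.4 normalised counts in BEC normal, it was at least 100-fold higher in BEC tumour. The difference of HEC normal from the same limit was at least 1.62-fold, with its lowest library, at 12.2, close to that limit. The Wald tests against BEC normal used its values of 0 and not the limit. They gave an adjusted p of 4.59e-19 for BEC tumour and 4.75e-06 for HEC normal. Whether HEC normal exceeded the limit itself was not tested. HEC tumour stood at -6.30 ± 0.74 relative to BEC tumour (log2, adjusted p = 1.24e-16), and HEC tumour and HEC normal overlapped (adjusted p = 0.784).

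**Figure D3:**
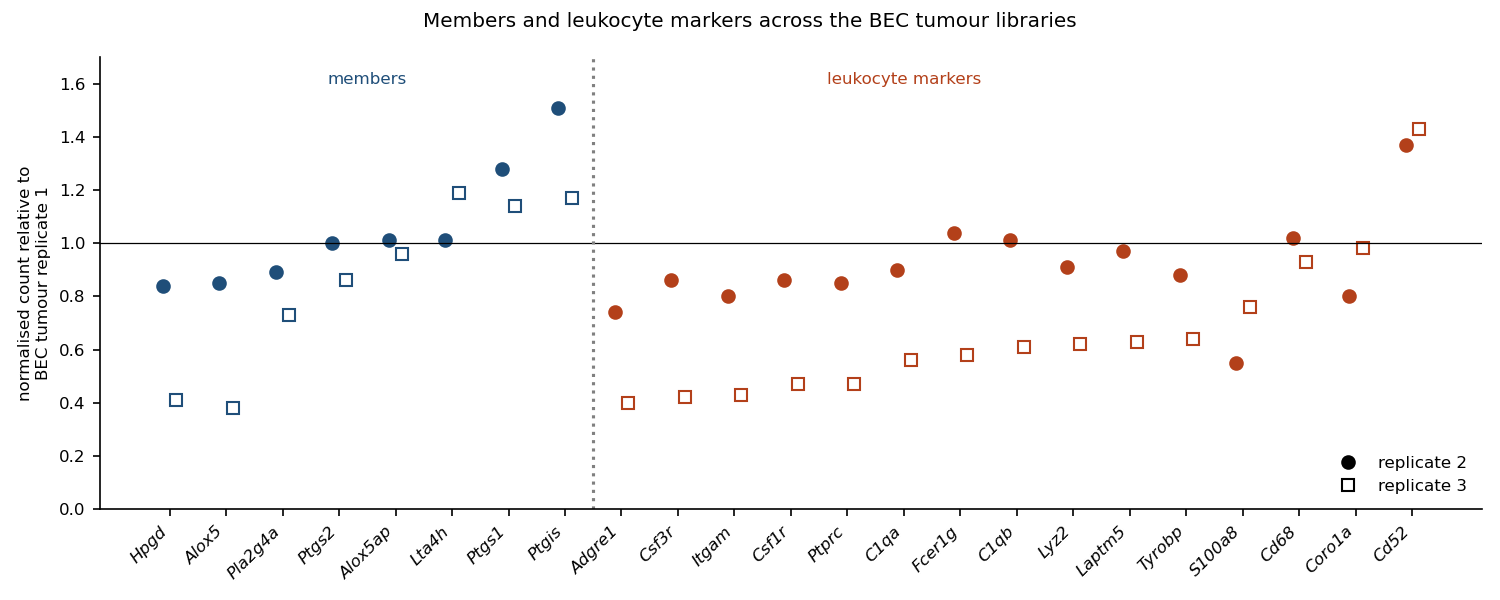
Normalised counts in BEC tumour replicates 2 and 3 relative to replicate 1, for the 8 members and 15 myeloid and leukocyte markers with at least 20 in replicate 1. In replicate 3 Hpgd and Alox5 stand at 0.41 and 0.38 and the other 6 members between 0.73 and 1.19, while the markers run from 0.40 (Adgre1) to 1.43 (Cd52).

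The 3 BEC tumour libraries were set against each other, as a description with no test. Replicate 3 held 0.41 of the Hpgd and 0.38 of the Alox5 of replicate 1, and 1.14 of the Ptgs1. Of 16 myeloid and leukocyte markers, 15 could be read in the same way, and their ratios had a median of 0.61. The macrophage gene Adgre1 was the lowest, at 0.40, and the common leukocyte antigen Ptprc stood at 0.47. Cd68, a lysosomal glycoprotein, stood at 0.93, Coro1a at 0.98 and Cd52 at 1.43, so not all markers were lower in replicate 3. Adgre1 was at 2515, 1849 and 1005 normalised counts in BEC tumour and at most 4.1 in every other endothelial library. C1qa, a complement gene of macrophages, was at 3847 to 6887 in BEC tumour and at most 3.8 elsewhere. Of 12 myeloid markers all 12 were above 0 in BEC tumour, and 10 averaged at least 1 CPM, against 3 in BEC normal. Their part in the Hpgd and Alox5 values was not tested. BEC tumour replicate 3 also held the most epithelial marker RNA, 84.3 CPM against 14.3 in the lowest library of its group.

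**Figure D4:**
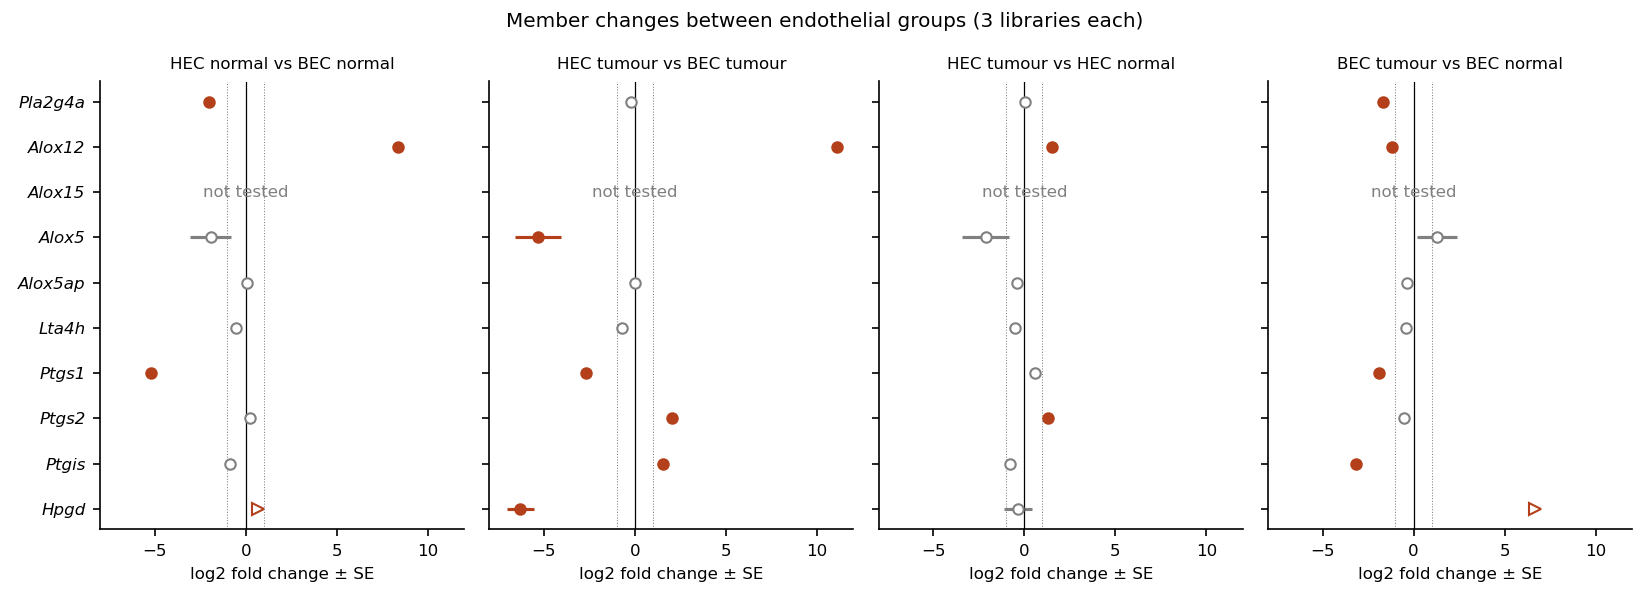
Log2 fold changes ± SE of the members in 4 comparisons of endothelial groups (3 libraries each). Filled points passed an adjusted p of 0.05 and a fold of 2, open circles did not, and open triangles mark lower bounds for Hpgd, which was at 0 in BEC normal. In HECs with tumour Alox12 and Ptgs2 are the filled points.

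Counts of members called were set beside the share of all 18511 genes called. Between HEC normal and BEC normal, 2 of 9 tested members were higher (Alox12 and Hpgd) against 17.1% of all genes, and 2 were lower (Ptgs1 and Pla2g4a) against 15.1%. Between HEC tumour and BEC tumour, 3 were higher (Alox12, Ptgs2 and Ptgis) against 11.2% and 3 were lower (Alox5, Ptgs1 and Hpgd) against 10.7%. With tumour in BECs, 1 was higher (Hpgd) against 12.4% and 4 were lower (Alox12, Ptgs1, Ptgis and Pla2g4a) against 10.8%. The median log2 fold change of the 9 was -0.55, -0.24 and -0.52 in these comparisons and -0.34 between HEC tumour and HEC normal, where the median of all genes was within 0.02 of 0.

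The change with tumour was then compared between the cell types by the interaction term. It was called for 6 of 9 members, 5 of them higher (the change in HECs above that in BECs) against 11.2% of all genes, and 1 lower against 12.1%. The 5 were Alox12 (2.73 ± 0.28, adjusted p = 1.46e-21), Ptgs1 (2.51 ± 0.18), Ptgis (2.37 ± 0.27), Ptgs2 (1.80 ± 0.21) and Pla2g4a (1.75 ± 0.23, adjusted p = 5.56e-13). Of these, Alox12 was called higher in HECs and lower in BECs, Ptgs1, Ptgis and Pla2g4a were called only in BECs, and Ptgs2 only in HECs. Hpgd was the member called lower (adjusted p = 2.02e-15). For Alox5ap and Lta4h the interaction was -0.08 ± 0.12 and -0.14 ± 0.13 (adjusted p = 0.658 and 0.396). The tumour groups differ in site as well, being primary tumours for BECs and lymph nodes for HECs. The BEC side of each term also holds the difference in tissue and digestion between fat pad and tumour.

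The wider pathway was read through 71 other genes in 9 groups, of which 53 were tested in the endothelial table. Between HEC normal and BEC normal 9 were higher (17.1% of all genes were) and 19 lower (15.1% of all genes). Between HEC tumour and BEC tumour 4 were higher and 17 lower, against 11.2% and 10.7% of all genes. In HECs with tumour 4 were higher and 2 lower, against 4.58% and 3.21%. In BECs with tumour 11 were higher and 13 lower, against 12.4% and 10.8%. The list's median log2 fold change was -0.21, -0.52, -0.03 and 0.20 in those comparisons.

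Among enzymes that add to or finish leukotrienes, the leukotriene C4 synthase gene Ltc4s was high in BEC normal alone of the 4 groups. It held 4146, 5804 and 5415.5 normalised counts there and at most 61.2 in any other endothelial library. In HEC normal against BEC normal 5 of the 6 genes of that branch were lower (15.1% of all genes were), and 4 of 6 fell with tumour in BECs (10.8% of all genes). Dpep1, a dipeptidase that trims leukotriene D4, averaged 413 in BEC normal and 5.26 in HEC normal (log2 -6.29 ± 0.57, adjusted p = 1.15e-27). Mgst2, a microsomal glutathione transferase, was higher in HECs than BECs of tumour-bearing mice, at 388 ± 68 against 97.4 ± 7.6 (log2 1.99 ± 0.19, adjusted p = 3.96e-25). Its mean was also higher in HECs without tumour, at 464 ± 17 in HEC normal against 184 ± 23 in BEC normal. In the interaction Ltc4s was at 7.69 ± 0.54 and Dpep2, a further dipeptidase of the branch, at 2.45 ± 0.68 (adjusted p = 0.00115).

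Prostanoid synthases moved in several directions. Ptges, the inducible prostaglandin E synthase, averaged 1102 ± 91 in BEC normal and 227 ± 149 in BEC tumour, and was lower in HEC tumour (178 ± 32) than HEC normal (412 ± 90.0; log2 -1.21 ± 0.37, adjusted p = 0.0052). In HECs with tumour Ptges was thus called lower and Ptgs2 higher. Ptgds, a prostaglandin D synthase, was at 0 in all BEC normal libraries. It was at 310.5 to 389 in BEC tumour, at least 29.8-fold higher, and at 94.7 to 118 in HEC normal, at least 9.52-fold higher. Fam213b, a prostamide synthase, was at 0 in all 6 HEC libraries and at 174 to 371 in BECs. That made it at least 20.4-fold lower in HECs between the normal groups and at least 25.7-fold lower between the tumour groups. Hpgds, the haematopoietic prostaglandin D synthase, and Tbxas1, thromboxane synthase, both chosen after their values had been read, were at 199 to 556 and 312 to 473 in BEC tumour, with at most 17.6 and 16.8 in BEC normal. Relative to replicate 1, BEC tumour replicate 3 held 0.36 of the Hpgds, 0.66 of the Tbxas1 and 1.22 of the Ptgds. The part of the myeloid markers of BEC tumour in these values was not tested.

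Of the 5 transport and breakdown genes, 3 were lower in HEC normal against BEC normal and 3 fell with tumour in BECs, where 15.1% and 10.8% of all genes did. Slco2a1, the prostaglandin uptake carrier, held 6221, 6087 and 6155 normalised counts in BEC normal, 1302 to 1981 in BEC tumour and 448 to 528 in HEC normal. In HEC tumour it rose to 1354, 1407 and 1280 (log2 1.49 ± 0.15, adjusted p = 1.16e-22), above all HEC normal libraries. Its interaction term was 3.36 ± 0.20 (adjusted p = 4.02e-59). The other genes called with tumour in HECs, beside Ptges, Slco2a1 and Pla2g4c, were Tbxas1 (52.8 from 14.2) and Dpep2 (79.5 from 30.8), both higher, and Ptgfr, lower at 0 from 3.82, which is under the limit of 3 reads.

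Of the 18 other phospholipases A2, 12 were tested, and with tumour 1 rose in HECs and 3 rose in BECs, where 4.58% and 12.4% of all genes did. Pla2g4c, a further cytosolic enzyme, rose in HEC tumour to 132, 147 and 171 from 51.7, 63.1 and 17.2 in HEC normal (log2 1.77 ± 0.46, adjusted p = 0.000695). BEC tumour was also below HEC tumour in it (log2 difference of HEC tumour from BEC tumour 1.46 ± 0.46, adjusted p = 0.00356). Pla2g4e held 110.0 to 135 in BEC tumour and about 1 read in all of BEC normal, a ratio of 100 with a 95% exact interval of 17.6 to 3990. Its mean was 98.6 in HEC normal and 169 in HEC tumour, so the level was not particular to BEC tumour. Pla2g7, which hydrolyses platelet-activating factor, was at 2829, 2822 and 1597 in BEC tumour and at most 11.5 in any HEC library. In BEC normal it averaged 202. In the interaction its term was -5.89 ± 1.40 (adjusted p = 0.000107). Pla2g2d, a secreted enzyme, was at 153 to 243 in BEC tumour and at 0 in the other 9 endothelial libraries. Relative to replicate 1, BEC tumour replicate 3 held 0.56 of the Pla2g7, 0.63 of the Pla2g2d and 1.04 of the Pla2g4e. The part of the myeloid markers of BEC tumour in these values was not tested.

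Aloxe3, a lipoxygenase of the epidermis, was higher in HECs than BECs without tumour, at 301 ± 40 against 77.4 ± 17.2 (log2 1.97 ± 0.23, adjusted p = 1.44e-17). With tumour the same held, at 561 ± 18 against 158 ± 32 (log2 1.82 ± 0.21, adjusted p = 5.18e-17). Among receptors, the prostaglandin E2 receptor gene Ptger4 was higher in HEC normal (690, 689 and 686) than in BEC normal (260.2, 171 and 233; adjusted p = 3.47e-23). Between the tumour groups its mean was not higher in HECs, at 547 ± 40 in HEC tumour and 579 ± 53 in BEC tumour. Ptgfr, the prostaglandin F receptor, fell in BECs with tumour by 3.63 ± 1.27 (log2; adjusted p = 0.00954).

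**Figure D5:**
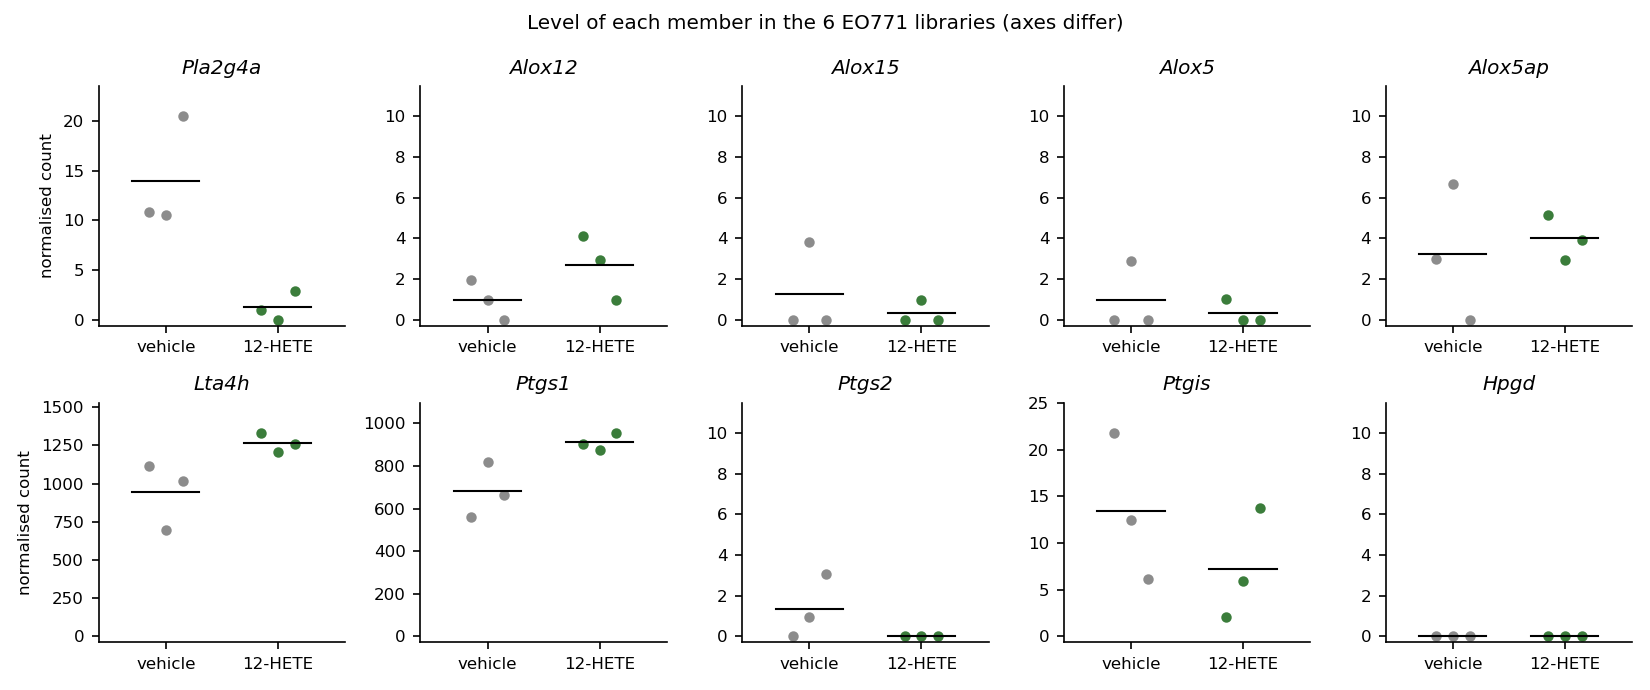
Normalised counts of the 10 genes in EO771 cells given vehicle or 12-HETE, with a linear axis that differs between panels; points are libraries and bars group means (n = 3). Ptgs1 and Lta4h are the members at 561 counts or more, and both are higher in all 3 12-HETE libraries.

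In EO771 cells given vehicle or 12-HETE only Ptgs1, Lta4h and Ptgis reached the mean count of 10 needed for a test. Ptgs1 held 561, 818 and 665 normalised counts with vehicle and 904, 876 and 955 with 12-HETE. The groups did not overlap, and the difference was 1.34-fold (log2 0.42 ± 0.15, adjusted p = 0.0163), short of the fold threshold. Lta4h held 1116, 695 and 1019 with vehicle and 1331, 1205 and 1262 with 12-HETE (1.34-fold, log2 0.43 ± 0.18, adjusted p = 0.0354). Ptgis was at 21.8, 12.4 and 6.1 with vehicle and 2.1, 5.9 and 13.8 with 12-HETE (adjusted p = 0.37). DESeq2 called 0 of the 3 members, against 2.38% of 11602 genes called higher and 7.79% called lower. At an unadjusted p under 0.05 there were 2 of the 3, and edgeR called 0. The share of all genes at that unadjusted threshold was not counted, so the 2 cannot be set against it.

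The lipoxygenases themselves were at or near 0 in EO771. Alox12 held 1.98, 0.96 and 0 normalised counts with vehicle and 4.11, 2.96 and 0.98 with 12-HETE, against a limit of about 3 for a count of 0. Alox15, Alox5 and Ptgs2 held at most 3.82 in any library and Alox5ap at most 6.69, and Hpgd was at 0 in all 6. Pla2g4a held 10.9, 10.5 and 20.5 with vehicle and 1.03, 0 and 2.95 with 12-HETE, which did not overlap. Its mean was under the filter. With no filter its log2 change was -3.38 (adjusted p = 0.00291). Of 28 pathway genes tested, 3 were called, 1 higher and 2 lower beside the same shares of all genes, all averaging under 100 and so chosen for naming only once their values had been read. Aloxe3 fell from 89.2 to 16.0 (log2 -2.48 ± 0.34, adjusted p = 2.99e-12). Pla2g5, a secreted phospholipase, fell from 17.6 to 5.67 (adjusted p = 0.0278), and Pla2g4c rose from 33.4 to 72.9 (log2 1.13 ± 0.35, adjusted p = 0.00385).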

How the data were processed

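RNA was sequenced from 12 endothelial and 6 EO771 libraries. Per the methods, the authors aligned reads to GRCm38 with STAR, counted them per gene with featureCounts and tested with DESeq2. The endothelial values that the authors deposited are whole numbers, but at the low end they cluster at multiples of about 3.71, so they were treated as estimated counts. The deposited EO771 values are raw counts. Tables were normalised separately and no test crosses them. Labels and methods name different library kits. For EO771 the methods name a directional kit and describe the removal of duplicate reads in the account of RNA editing, without saying whether the deposited counts were made from those reads. For the endothelial libraries removal of duplicates, and for both tables whether counting used strand, are not given in the sources used here.

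Genes with a mean of at least 10 were tested, 18511 endothelial and 11602 EO771 genes, with DESeq2 1.42.0 (R 4.3.3), its Wald test (two-sided) adjusted by Benjamini-Hochberg, in 1 fit per table with group as the only term. A gene was called at an adjusted p under 0.05 and a fold over 2. In the text, values are DESeq2 normalised counts unless CPM is named, ± is SD for levels and SE for log2 fold changes, and 3 reads per library is the limit for a value of 0, taken as 3 steps in the endothelial table. Intervals and limits cover counting error only, as reads carry no molecular identifiers. Alternatives were edgeR 4.0.16, TMM factors, no filter, a replicate block, no fold threshold, values divided by the step, only the groups compared, and leaving out each library. On simulated data of the same size 200 of 200 changed genes were recovered. Those changes were larger than the fold threshold, in genes well above the filter, with the same spread for every gene. The recovery therefore does not show how often smaller changes, or changes in genes at low counts, would be found. Lines were matched by identifier or symbol, 55141 of 55401 endothelial identifiers having a symbol. Promoters are from RefSeq (GRCm38.p6), which held 7 of the 10 members.

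The members, pathway groups, marker lists and tests were chosen with earlier results of these data known. Genes named were all 10 members, and of the pathway list, per comparison, up to 3 called higher and 3 lower with the largest change among those averaging at least 100 normalised counts in a compared group, and the 5 genes outside the lists nearest to Alox12. Others named are markers, neighbours of Alox12 and genes given as chosen after their values were seen.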

Additional observations from a re-analysis of the deposited data

Results flagged for a closer look

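For 6 members, HECs and BECs differed in their change with tumour by a test of the difference itself (the interaction term, 3 libraries in each of 4 groups). As HEC change less BEC change on the log2 scale, it was 2.73 for Alox12, 2.51 for Ptgs1, 1.80 for Ptgs2, 2.37 for Ptgis and 1.75 for Pla2g4a. For Hpgd, with BEC normal set at the limit of 3 reads per library because all its libraries were at 0, it was -7.00 or lower. For Ptgs1, Ptgis and Pla2g4a the larger change was the fall in BECs, and BEC normal was the group with the highest fibroblast and pericyte markers. For Hpgd it was the rise in BECs, in the group with the highest myeloid markers. The part of those markers was not tested.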

How the results depend on the processing

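Of 654 values of single members under the alternatives, 627 kept direction and side of the threshold, 19 came to pass it, 2 no longer passed it and 6 changed sign, none of which had been called. Called by adjusted p alone, members numbered 6 between HEC tumour and HEC normal, 8 between BEC tumour and BEC normal and 2 in EO771, and pathway genes 34 between HEC tumour and BEC tumour, 14 between HEC tumour and HEC normal, 37 between BEC tumour and BEC normal and 16 in EO771. The share of all genes at that looser threshold was not counted, so these numbers show only how the calls move with it. With no filter 1 EO771 member was called, Pla2g4a. The sign changes were in small differences. With values divided by the step, Alox5ap between HEC tumour and BEC tumour was at 0.000. Leaving out 1 library at a time gave Alox5ap a range of -0.043 to 0.012 in that comparison, -0.022 to 0.094 between HEC normal and BEC normal and -0.114 to 0.004 in the interaction. The same gave Hpgd -1.15 to 0.23 and Pla2g4a -0.008 to 0.158 between HEC tumour and HEC normal. The cause was not tested. The calls that no longer passed were both Alox12 between BEC tumour and BEC normal, without BEC tumour replicate 1 (-0.78) and in a fit of those 2 groups alone (-1.15, adjusted p = 0.107). Alox5, at a few reads per library, came to pass in several settings, such as the interaction with TMM factors (-3.45, adjusted p = 0.0408), without HEC normal replicate 2 (-3.98) and without HEC tumour replicate 3 (-6.61), and values at that depth are not firm. Pairing by replicate number was read from deviations from the group means. Same-numbered libraries had correlated deviations of -0.015 to 0.053 over 18 endothelial pairs and 0.025 to 0.154 over 3 EO771 pairs. Differently numbered libraries ran from -0.057 to 0.032 in the endothelial table and from -0.114 to 0.033 in EO771. These values cannot tell whether same-numbered libraries share an animal or an experiment. With the replicate block, members called numbered 4, 6, 2, 5, 6 and 0 in the 6 comparisons, as without it, and pathway genes 27, 22, 5, 24, 23 and 2. Shares of all genes with the block were not counted either.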
